A study of Arabidopsis thaliana and Marchantia polymorpha and Mesotaenium endlicherianum with 120 samples.

Results

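The plastid-encoded genes of the unicellular green alga Ostreococcus tauri were followed across 4 combinations of temperature and light. Members were all entries of the Ostreococcus count table with an OstapC identifier, 94 of its 7833 entries, against 72359 entries in the tables of all the species of the series. They comprised 61 protein-coding entries, 27 tRNA entries and 6 rRNA entries. RNA-seq was carried out on wild-type cells grown for 7 days in continuous white light, and no mutant of this alga was included. The groups were 24 °C at a photon flux of 100 µmol per square metre per second (light 100), 24 °C at 10 µmol (light 10), 16 °C at light 100 and 16 °C at light 10, with 3 libraries each. The labels do not say whether the libraries of a group came from separate cultures, so p-values measure only the spread between these 12 libraries.

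The chloroplast keeps a small genome of its own. It encodes the core proteins of both photosystems, subunits of the cytochrome b6f complex and of the ATP synthase, the large subunit of Rubisco, and the rRNAs, tRNAs and part of the proteins that transcribe and translate these genes. The remaining subunits of the same complexes are nuclear genes whose products are imported. Photosystem genes of the plastid are known to respond to light at several levels, including transcription, RNA stability and translation.

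Plastid entries took up a very small part of the libraries. Total counts ran from 18415316 in replicate 1 at 24 °C in light 100 to 38801166 in replicate 1 at 16 °C in light 10, and the plastid entries held 174017 of 421978613 counts over all libraries (0.0412%). The rRNA entries alone made up 92.2% of the plastid counts. These plastid sums include both copies of the paired entries described next. With 1 copy of each pair, the rRNA share of plastid counts was 70.2% ± 6.17 at 24 °C in light 100 (mean ± SD). It was 90.0% ± 2.36 at 24 °C in light 10, 88.1% ± 1.20 at 16 °C in light 100 and 89.4% ± 1.39 at 16 °C in light 10. There were 6 pairs of entries with 1 name and nearly equal counts in every library, for psbA, rrs, rrl, rrf, trnI and trnA. The trnI and trnA pairs were identical in all 12 libraries, and the others differed by at most 80 counts in any library. The counts do not tell the members of such a pair apart, so 1 of each is described and sums use 1 copy unless stated otherwise. In these bulk samples, fewer plastid genomes per cell and less RNA from each cannot be told apart. How RNA was selected for the libraries is not given in the sources used here, so levels are shares of what the libraries captured.

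Of the 94 entries, 28 passed the filter on low counts and were tested. The other 66 had at most 87 counts over the 12 libraries, with a median of 16. All 6 rRNA entries and 22 of the 61 protein-coding entries were tested, and none of the 27 tRNA entries. By role, 6 of 14 photosystem II entries, 2 of 6 photosystem I entries, 4 of 6 ATP synthase entries, 5 of 11 proteins of the small ribosomal subunit and 1 of 4 RNA polymerase subunits passed. The single Rubisco entry passed, and so did 3 of 8 other named entries. None of the 3 cytochrome b6f entries and none of the 8 proteins of the large ribosomal subunit did. The lowest tested entry, psbH, had 59 counts in all. A tRNA entry, trnN, had 0 counts in every library. The floor of 3 counts is 0.00711 CPM (counts per 1000000 counts) over the counts of all libraries together, and it covers counting error only. It does not apply to the CPM of a single library, where 1 count was 0.0233 to 0.058 CPM.

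**Figure D1:**
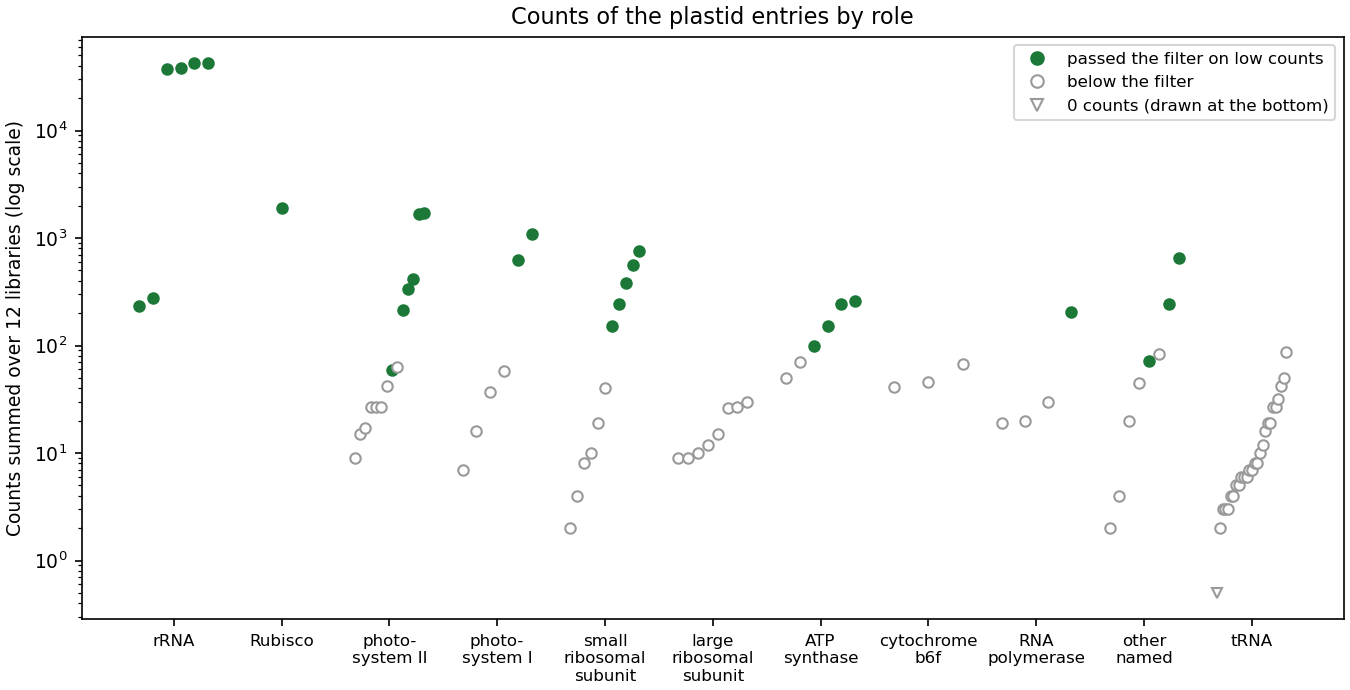
Counts of each plastid entry summed over the 12 libraries, on a log axis, by role. Filled points are the 28 entries that passed the filter on low counts, open points the 66 that did not, and the triangle is trnN with 0 counts. The rRNA entries rrs and rrl lie far above all others, and every tRNA, cytochrome b6f and large-subunit entry lies below the filter.

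The sums of the RNA classes moved differently over the groups. Plastid rRNA took 78.8 ± 12.8 unscaled CPM, or counts per 1000000 counts of the library, at 24 °C in light 100, 163.9 ± 18.5 at 24 °C in light 10, 269.4 ± 94.5 at 16 °C in light 100 and 222.8 ± 89.1 at 16 °C in light 10 (mean ± SD, n = 3 each). The 3 libraries at 24 °C in light 100, with 71.2 to 93.6 unscaled CPM, lay below all others, whose lowest value was 143.0. Plastid protein-coding counts took 31.7 ± 6.57 unscaled CPM at 24 °C in light 100, against 17.5 ± 2.73 at 24 °C in light 10. At 16 °C they took 35.2 ± 10.5 at light 100 and 24.6 ± 6.68 at light 10. The protein-coding sums of the 2 groups at 24 °C did not overlap, whereas those at 16 °C did. There were accordingly 2.56 ± 0.631 rRNA counts per protein-coding count at 24 °C in light 100, against 9.64 ± 2.52 at 24 °C in light 10, 7.61 ± 0.815 at 16 °C in light 100 and 8.86 ± 1.15 at 16 °C in light 10. These sums are descriptions without a test.

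Sums of mitochondrial counts, the other organelle, were 879.9 ± 646.7 unscaled CPM at 24 °C in light 100, 439.0 ± 78.8 at 24 °C in light 10, 884.3 ± 426.0 at 16 °C in light 100 and 880.9 ± 122.1 at 16 °C in light 10. Replicate 1 at 24 °C in light 100, the library of lowest depth, stood apart with 1626 unscaled CPM, against 532.3 and 481.3 in the others of its group. It was also the highest of its group for plastid tRNA, at 3.10 unscaled CPM against 1.19 and 0.914. At 16 °C in light 100, replicate 1 was the highest of its group for plastid rRNA, plastid protein-coding and mitochondrial counts. In unscaled CPM its plastid rRNA was 378.2, and the others of its group had 207.8 and 222.2, against 153.8 to 323.4 at 16 °C in light 10, so the order of the means at 16 °C rests on this library.

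**Figure D2:**
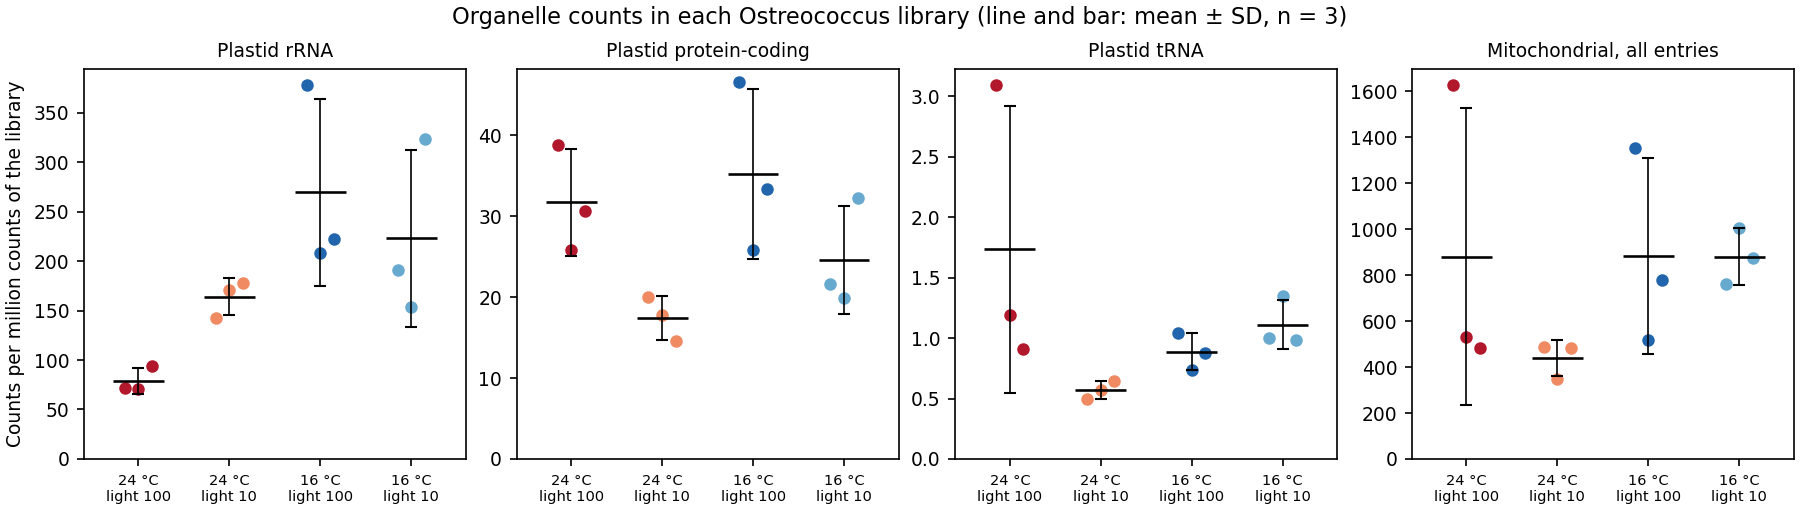
Summed CPM of the unscaled library for plastid rRNA, plastid protein-coding genes (both with 1 copy of each pair), all 27 plastid tRNA entries and all mitochondrial entries. Points are libraries, lines are means and bars SDs (n = 3). Plastid rRNA was lowest in the 3 libraries at 24 °C in light 100, while the plastid protein-coding sum there exceeded that at 24 °C in light 10.

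The rRNA entries were tested first. The rrs gene encodes the rRNA of the small subunit of the plastid ribosome, rrl the large rRNA of the large subunit and rrf its small 5S rRNA. For rrs (OstapCr01), the counts were 603, 1406 and 1508 at 24 °C in light 100, 3183, 3751 and 2425 at 24 °C in light 10, 7300, 4604 and 4078 at 16 °C in light 100, and 4312, 3201 and 5905 at 16 °C in light 10. Relative to library size this gave 42.4 ± 7.03 CPM at 24 °C in light 100, 96.0 ± 10.3 at 24 °C in light 10, 129 ± 45.1 at 16 °C in light 100 and 108 ± 27.6 at 16 °C in light 10. The group at 24 °C in light 100 did not overlap with any other, and the other 3 groups overlapped with each other.

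At light 100, rrs fell with warmth by 1.61 ± 0.23 on the log2 scale (SE), a 3.04-fold lower level at 24 °C than at 16 °C (edgeR adjusted p = 3.17e-05). At 24 °C it was also lower at light 100 than at light 10, with a log2 change of -1.18 ± 0.23 (edgeR adjusted p = 0.000632). The remaining simple comparisons were not called, with an edgeR adjusted p of 0.522 for warmth at light 10 and of 0.401 for light at 16 °C. The difference between the warmth effects at light 100 and light 10 was itself called, at -1.44 ± 0.32 on the log2 scale (edgeR adjusted p = 0.00509). The second rrs entry (OstapCr06) had changes of -1.60, -1.17 and -1.43, all called. Every alternative setting and every left-out library kept these calls. Without replicate 1 at 16 °C in light 100 the change with warmth at light 100 was -1.29 (edgeR adjusted p = 8.72e-05).

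The rrl counts showed the same order with a wider spread. The first rrl entry (OstapCr02) had 671, 1197 and 1760 counts at 24 °C in light 100, 2306, 2845 and 2283 at 24 °C in light 10, 7188, 3289 and 4486 at 16 °C in light 100, and 3063, 2247 and 6539 at 16 °C in light 10. Its level at 24 °C in light 100 was 44.3 ± 11.2 CPM and that at 16 °C in light 100 was 121 ± 51.0 CPM, and these groups did not overlap. With warmth at light 100, rrl fell by 1.45 ± 0.36 on the log2 scale (edgeR adjusted p = 0.00245), and this call was kept in all alternatives. It was -1.06 (edgeR adjusted p = 0.0161) without replicate 1 at 16 °C in light 100. The lower level at light 100 than at light 10 at 24 °C did not pass the test (edgeR adjusted p = 0.0618), nor did the interaction (edgeR adjusted p = 0.0890). In a fit of the compared groups alone the change with light at 24 °C was called, at -0.81 (edgeR adjusted p = 0.00945). Leaving out single libraries gave further calls of rrl, for example -1.05 with light at 24 °C without replicate 3 at light 100 (edgeR adjusted p = 0.0403).

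The third rRNA, rrf, had far fewer counts and another pattern. Its first entry (OstapCr03) had 45, 18 and 10 counts at 24 °C in light 100, 9, 4 and 8 at 24 °C in light 10, 44, 10 and 15 at 16 °C in light 100, and 42, 39 and 34 at 16 °C in light 10. The levels were 1.16 ± 1.26 CPM at 24 °C in light 100, 0.228 ± 0.116 at 24 °C in light 10, 0.561 ± 0.460 at 16 °C in light 100 and 0.936 ± 0.124 at 16 °C in light 10. The groups at 24 °C in light 10 and at 16 °C in light 10 did not overlap, but the groups at light 100 were spread widely, each with replicate 1 far above the others. Warmth at light 10 lowered rrf, with a log2 change of -2.10 ± 0.80 (edgeR adjusted p = 0.0323). Higher light at 24 °C raised it, by 2.22 ± 0.83 (edgeR adjusted p = 0.0343), and the interaction was 2.96 ± 1.06 (edgeR adjusted p = 0.0496).

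These rrf calls rested on few libraries. Without replicate 1 at 24 °C in light 100, the rrf change with light at 24 °C was 1.01 (edgeR adjusted p = 0.265) and the interaction 1.75 (edgeR adjusted p = 0.155). That light effect was lost as well without replicate 1 (2.32, edgeR adjusted p = 0.0668) or replicate 2 (1.86, edgeR adjusted p = 0.111) at 24 °C in light 10. The warmth effect at light 10 was lost without replicate 1 (-2.18, edgeR adjusted p = 0.0665) or replicate 2 (-1.72, edgeR adjusted p = 0.113) at 24 °C, and without replicate 1 (-2.04, edgeR adjusted p = 0.0662) or replicate 2 (-2.03, edgeR adjusted p = 0.0662) at 16 °C in light 10. For the second entry (OstapCr04) it was lost without replicate 3 of that group too (-2.08, edgeR adjusted p = 0.0583). The interaction was kept only without replicate 2 or 3 at 24 °C in light 100, replicate 3 at 24 °C in light 10 or replicate 1 at 16 °C in light 100, and lost without any 1 of the other 8 libraries, with edgeR adjusted p up to 0.155.

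Protein-coding entries had most of their calls in the comparisons of light, and higher light at 24 °C gave the most. Of the 28 plastid entries tested, 11 were higher at light 100 than at light 10 and 2 were lower. Over all 7667 entries of the Ostreococcus table that were tested, 58.5% were called in this comparison, 29.7% higher and 28.8% lower. Among the plastid entries 39.3% were higher and 7.14% lower. The higher entries included both copies of rrf, and the lower ones were the 2 copies of rrs. The median log2 change of the plastid entries was 1.07, against -0.03 over all entries. Of the 22 protein-coding entries, 9 were higher and 0 lower, with a median of 1.10. The mitochondrial entries tested, 62 in number, had 12 higher and 2 lower and a median of 0.44. Without the 2 libraries of lowest depth, which were replicate 1 at light 100 and replicate 3 at light 10 of this very comparison, 5 plastid entries were higher. That count was 5 without replicate 1 at light 100, 6 without replicate 1 at light 10 and 7 without replicate 2 at light 10. DESeq2, which gave an adjusted p to 93 plastid entries, called 18 higher. The share that DESeq2 called over all entries was not computed, so this count cannot be set against the edgeR shares.

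At 16 °C, higher light raised 5 of the 28 plastid entries and lowered 0. Their share of 17.9% higher was close to that over all entries tested, of which 36.3% were called, 18.9% higher and 17.4% lower. The median was 0.35 for the plastid entries and 0.00 over all entries. All 5 entries were protein-coding. An unadjusted p under 0.05 was found for 8 of the 28 plastid entries, against 3450 of all 7667 entries tested. DESeq2 called 6 higher and 0 lower of 93 plastid entries, and its share over all entries was not computed. The count of higher entries was 1 without replicate 1 at light 100, and 2 without replicate 1 or replicate 2 at light 10.

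The precision of the plastid values was low. A plastid entry that passed the filter had a median of 361 counts over all libraries, against 20141 over all entries tested. The median standard error of the log2 change with light at 24 °C was 0.44 for plastid entries and 0.12 over all entries. A plastid entry that was not called is therefore not shown to be unchanged.

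**Figure D3:**
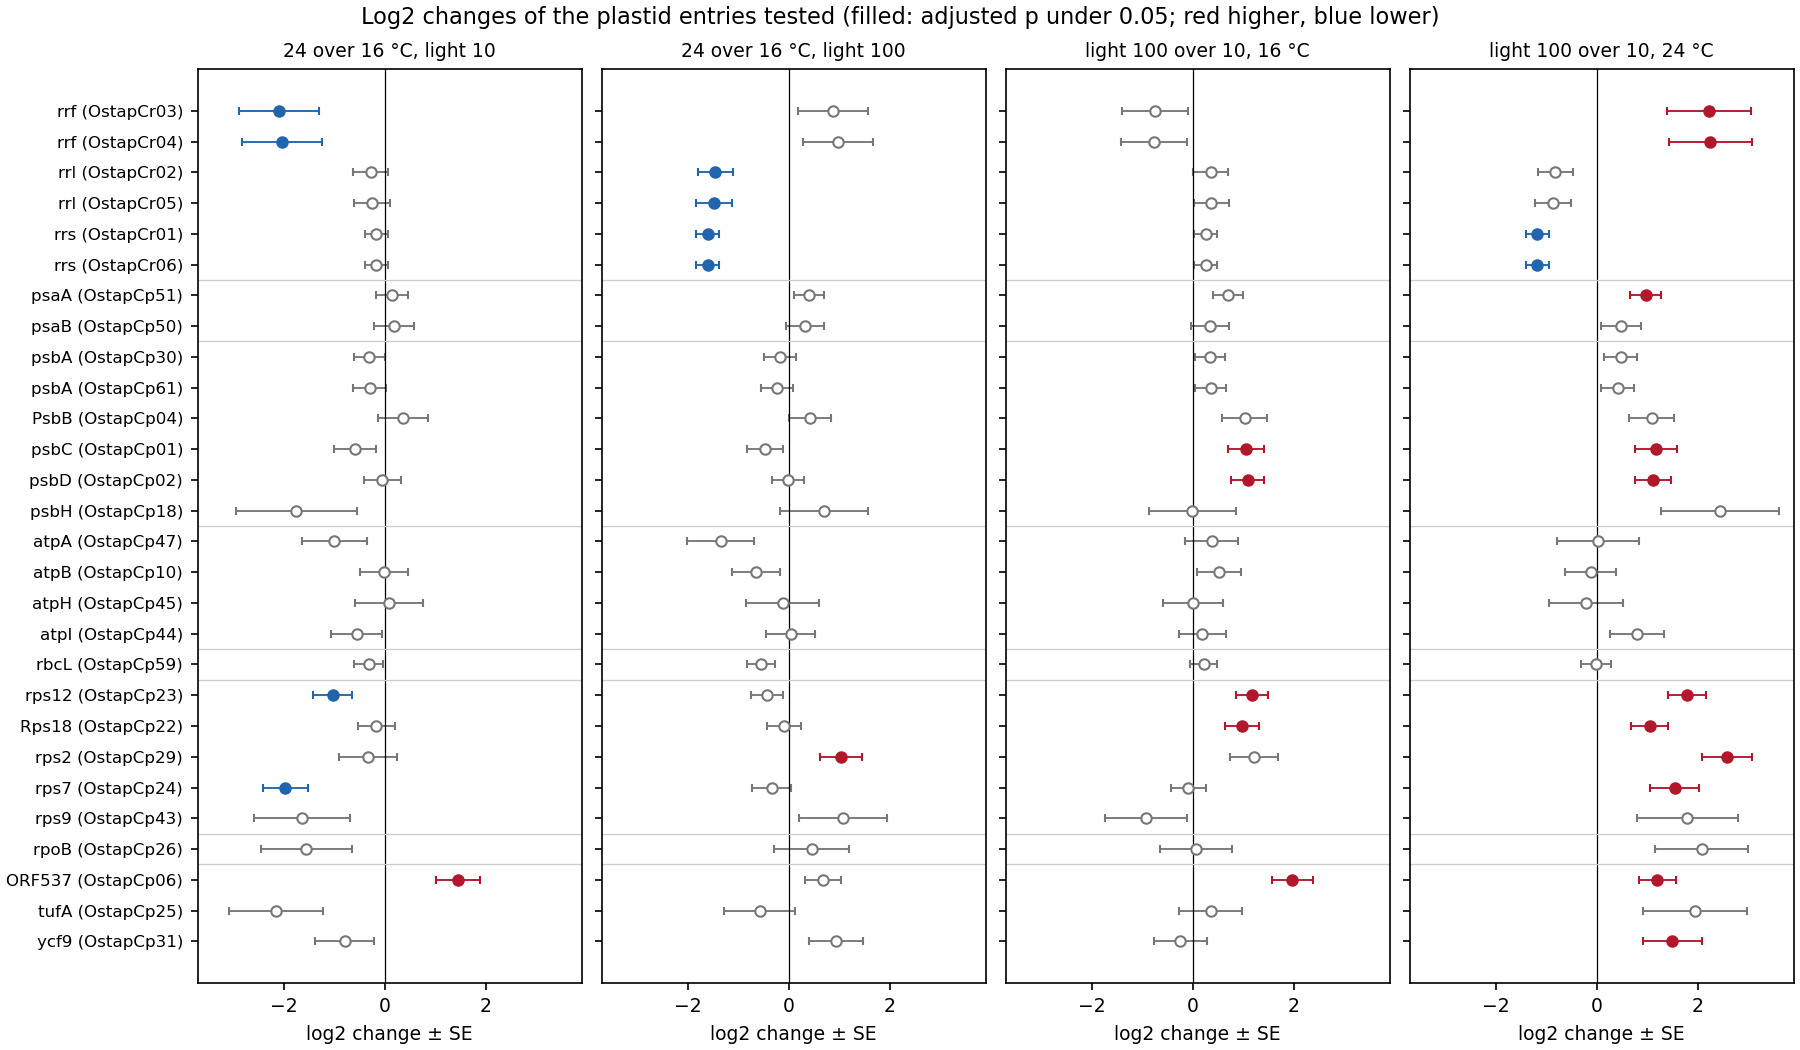
Log2 changes (± SE) of the 28 plastid entries tested in the 4 simple comparisons, in blocks by role. Filled points passed an adjusted p of 0.05 in edgeR, red for higher and blue for lower. With light at 24 °C, 9 protein-coding entries were higher and none lower, while both rrs entries were lower.

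In photosystem II, psbD and psbC rose with light at both temperatures. They encode the reaction-centre protein D2 and an inner antenna protein. The psbD entry (OstapCp02) had 15, 41 and 33 counts at 24 °C in light 100 and 15, 20 and 14 at 24 °C in light 10, or 1.07 ± 0.194 CPM at light 100 and 0.510 ± 0.102 CPM at light 10. At 16 °C it had 60, 28 and 49 counts at light 100 and 19, 18 and 27 at light 10, or 1.10 ± 0.407 CPM at light 100 and 0.517 ± 0.0976 CPM at light 10. In CPM, light 100 lay above light 10 in every library at either temperature. The log2 change with light was 1.11 ± 0.36 at 24 °C (edgeR adjusted p = 0.0165) and 1.09 ± 0.33 at 16 °C (edgeR adjusted p = 0.0186).

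For psbC (OstapCp01) the counts were 20, 31 and 38 at 24 °C in light 100 and 10, 25 and 13 at 24 °C in light 10. At 16 °C they were 95, 40 and 56 at light 100 and 28, 26 and 37 at light 10. The level was 1.12 ± 0.147 CPM at 24 °C in light 100, 0.496 ± 0.210 at 24 °C in light 10, 1.55 ± 0.719 at 16 °C in light 100 and 0.735 ± 0.11 at 16 °C in light 10. As for psbD, no library at light 10 reached the lowest one at light 100 of the same temperature. The log2 changes with light were 1.17 ± 0.42 at 24 °C (edgeR adjusted p = 0.0280) and 1.06 ± 0.36 at 16 °C (edgeR adjusted p = 0.0316).

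Single libraries decided these calls though not their direction. At 16 °C, leaving out replicate 1 at light 100 gave 0.82 for psbD (edgeR adjusted p = 0.0931) and 0.63 for psbC (edgeR adjusted p = 0.188). The calls were also lost without replicate 1 or 2 at light 10, at 1.00 and 1.03 for psbD and 1.00 and 1.01 for psbC (edgeR adjusted p from 0.0633 to 0.0959). At 24 °C, psbD was lost without replicate 2 at light 100 (0.96, edgeR adjusted p = 0.0688) or replicate 1 at light 10 (0.94, edgeR adjusted p = 0.0643). There psbC was lost without replicate 1 (1.14, edgeR adjusted p = 0.0571) or replicate 3 (1.08, edgeR adjusted p = 0.0778) at light 100, or replicate 1 at light 10 (0.83, edgeR adjusted p = 0.113).

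The other entries with a psb name were not called. PsbB (OstapCp04), for an inner antenna protein, had 13, 30 and 22 counts at 24 °C in light 100 and 18, 10 and 9 at 24 °C in light 10. In CPM these groups did not overlap, with 0.714 to 0.921 at light 100 and 0.269 to 0.476 at light 10. Its edgeR adjusted p for light was 0.0537 at 24 °C and 0.0886 at 16 °C. Some alternatives called PsbB higher with light at 24 °C. Among them were DESeq2 (1.10, DESeq2 adjusted p = 0.0496) and the fit of the compared groups alone (1.09, edgeR adjusted p = 0.0323). The psbA entries encode the reaction-centre protein D1. The first (OstapCp30) had 82, 111 and 147 counts at 24 °C in light 100, 127, 117 and 63 at 24 °C in light 10, 293, 130 and 175 at 16 °C in light 100, and 123, 114 and 235 at 16 °C in light 10. Its level was 4.31 ± 0.784 CPM at 24 °C in light 100, 3.06 ± 0.351 at 24 °C in light 10, 4.84 ± 2.15 at 16 °C in light 100 and 3.79 ± 1.46 at 16 °C in light 10. The libraries of both lights overlapped at 16 °C. At 24 °C they did not overlap for this entry, but they did for the second (OstapCp61). The lowest library of the second entry at light 100 had 3.13 CPM, and its highest at light 10 had 3.36 CPM. No comparison of psbA was called (edgeR adjusted p of 0.223 or more).

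Small photosystem II subunits were mostly below the filter. The genes psbE and psbF encode the subunits of its cytochrome. The psbE entry had 12, 12 and 9 counts at 24 °C in light 100, 3, 5 and 4 at 24 °C in light 10, 4, 4 and 5 at 16 °C in light 100, and 0, 2 and 3 at 16 °C in light 10. The psbF entry had 7, 8 and 6 counts at 24 °C in light 100, 2, 2 and 2 at 24 °C in light 10, 3, 3 and 6 at 16 °C in light 100, and 0, 1 and 2 at 16 °C in light 10. In CPM, both were higher in every library at 24 °C in light 100 than in any other library, at counts too low to pass the filter. Fitted without the filter, psbE changed by 1.75 (edgeR adjusted p = 0.0189) and psbF by 2.05 (edgeR adjusted p = 0.0172) with light at 24 °C. With warmth at light 100, that fit gave 1.98 for psbE (edgeR adjusted p = 0.00653) and 1.43 for psbF (edgeR adjusted p = 0.0410). DESeq2 called psbE higher there too, at 2.08 (DESeq2 adjusted p = 0.00694). The remaining 6 untested entries of the complex had 9 to 27 counts in all.

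In photosystem I, psaA and psaB encode the paired reaction-centre proteins. The psaA entry (OstapCp51) had 85, 118 and 101 counts at 24 °C in light 100 and 91, 72 and 36 at 24 °C in light 10, or 3.94 ± 0.871 CPM at light 100 and 1.96 ± 0.440 CPM at light 10. These groups did not overlap in CPM, and psaA rose with light by 0.97 ± 0.31 (edgeR adjusted p = 0.0157). Without replicate 1 at light 100 its change was 0.79 (edgeR adjusted p = 0.0637). At 16 °C psaA had 164, 68 and 131 counts at light 100 and 72, 57 and 94 at light 10, groups that overlapped (edgeR adjusted p = 0.0870).

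The partner gene psaB (OstapCp50) was not called in any comparison. It had 33, 72 and 47 counts at 24 °C in light 100, 66, 42 and 26 at 24 °C in light 10, 92, 25 and 70 at 16 °C in light 100, and 46, 38 and 63 at 16 °C in light 10. Its mean levels lay between 1.18 ± 0.252 CPM at 16 °C in light 10 and 1.88 ± 0.343 CPM at 24 °C in light 100. That psaA was called and psaB was not does not show that they differed, which was not tested.

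The genes for carbon fixation and energy conversion had no called change. Rubisco is the enzyme that fixes carbon dioxide, and its large subunit rbcL (OstapCp59) was the protein-coding entry with the most counts, 1891. It had 63, 108 and 123 counts at 24 °C in light 100, 144, 125 and 92 at 24 °C in light 10, 274, 161 and 228 at 16 °C in light 100, and 156, 116 and 301 at 16 °C in light 10. At 24 °C its levels were 3.65 ± 0.340 CPM at light 100 and 3.69 ± 0.290 CPM at light 10, closer together than the spread of either group (edgeR adjusted p = 0.975). The smallest edgeR adjusted p for rbcL was 0.10, for warmth at light 100. In a fit of the compared groups alone rbcL was called there, at -0.58 (edgeR adjusted p = 0.0377).

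The ATP synthase makes ATP from the proton gradient, and atpA and atpB encode its catalytic head. The atpA entry (OstapCp47) had 7, 5 and 4 counts at 24 °C in light 100, 12, 6 and 2 at 24 °C in light 10, 29, 9 and 27 at 16 °C in light 100, and 15, 8 and 27 at 16 °C in light 10. The atpB entry (OstapCp10) had 14, 14 and 11 counts at 24 °C in light 100, 24, 21 and 9 at 24 °C in light 10, 42, 15 and 40 at 16 °C in light 100, and 13, 23 and 31 at 16 °C in light 10. Of the 4 ATP synthase entries tested, 0 were called in any comparison, and the smallest edgeR adjusted p was 0.0803, for atpA with warmth at light 100. Leaving out replicate 1 at 24 °C in light 100 gave a call of atpA there, at -1.86 (edgeR adjusted p = 0.0440). So did leaving out replicate 2 at 16 °C in light 100, at -1.72 (edgeR adjusted p = 0.0222). Cytochrome b6f joins the photosystems in the electron transport chain. Its subunit petA had 1, 0 and 7 counts at 24 °C in light 100, 0, 2 and 1 at 24 °C in light 10, 7, 2 and 10 at 16 °C in light 100, and 0, 7 and 9 at 16 °C in light 10, too few to test.

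**Figure D4:**
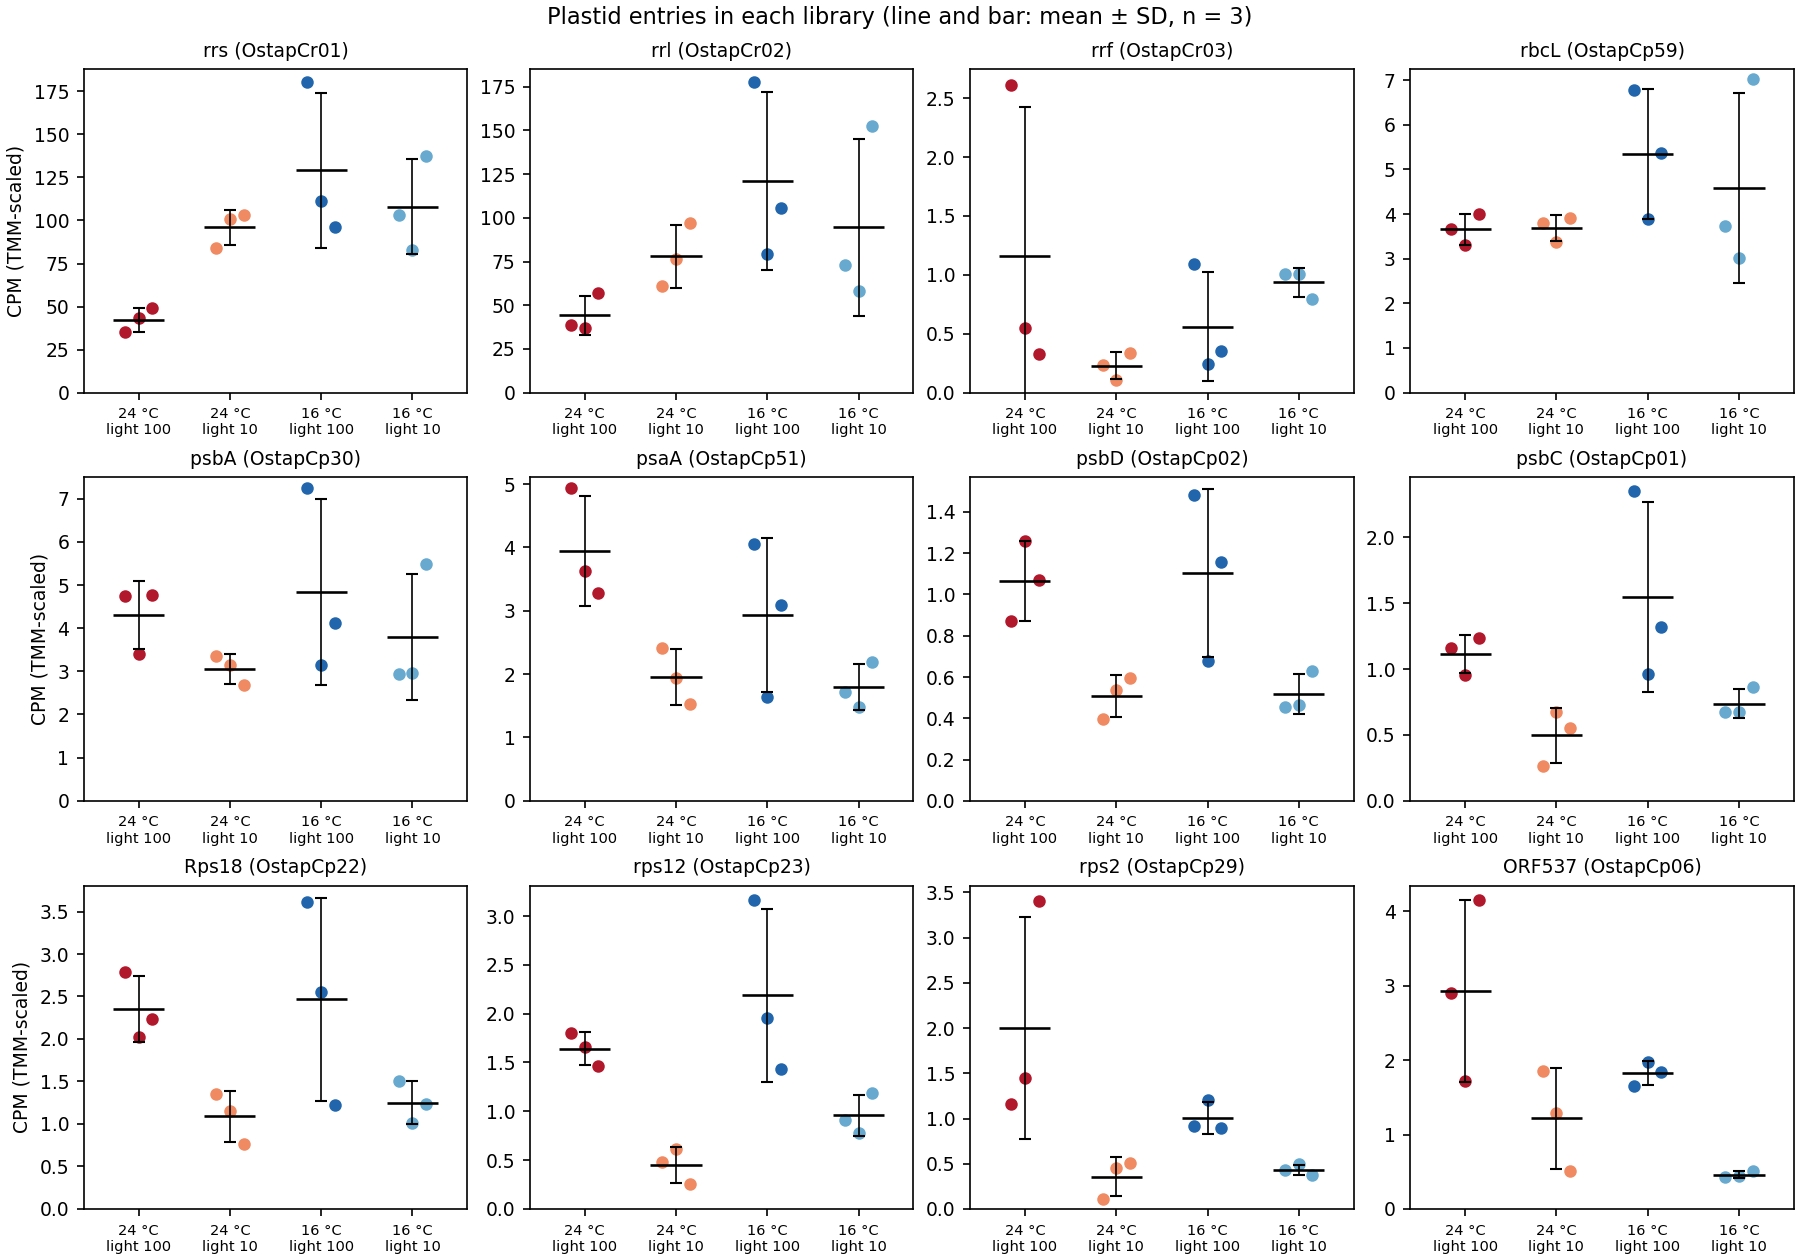
TMM-scaled CPM of 12 plastid entries in each library, with the mean (line) and SD (bar) of 3 libraries per group. The bar of rrf at 24 °C in light 100 runs below the axis. At 24 °C, rrs was lower at light 100 than at light 10, rbcL was level between them, and psaA, psbD, psbC, Rps18, rps12, rps2 and ORF537 were higher at light 100. The libraries of ORF537 overlapped between the lights there.

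Proteins of the small ribosomal subunit, which reads the mRNA, had the most calls among the protein-coding roles. With light at 24 °C, 4 of its 5 tested entries rose and 0 fell, with a median log2 change of 1.79, where 29.7% of all entries tested were higher. With light at 16 °C, 2 of the 5 rose, against 18.9% of all entries. With warmth at light 10, 2 of the 5 fell, against 33.4% of all entries, and with warmth at light 100, 1 rose, against 35.1%. Counts of 1 or 2 in 5 are too small to set against these shares. None of the 5 had a called interaction.

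The rps12 entry (OstapCp23) was called in 3 comparisons. It had 31, 54 and 45 counts at 24 °C in light 100, 18, 23 and 6 at 24 °C in light 10, 128, 81 and 61 at 16 °C in light 100, and 38, 30 and 51 at 16 °C in light 10. The level was 1.64 ± 0.169 CPM at 24 °C in light 100, 0.450 ± 0.183 at 24 °C in light 10, 2.19 ± 0.887 at 16 °C in light 100 and 0.958 ± 0.210 at 16 °C in light 10, and every library at light 100 lay above every library at light 10. Light raised rps12 by 1.79 ± 0.38 at 24 °C (edgeR adjusted p = 0.00114) and by 1.18 ± 0.31 at 16 °C (edgeR adjusted p = 0.00910). The call at 24 °C was kept in all alternatives. That at 16 °C was lost without replicate 1 at light 100 (0.82, edgeR adjusted p = 0.0571). With warmth at light 10, rps12 fell by 1.03 ± 0.38 (edgeR adjusted p = 0.0287). This was lost without replicate 1 (-1.04, edgeR adjusted p = 0.0618) or replicate 3 (-0.81, edgeR adjusted p = 0.0894) at 24 °C, or replicate 3 at 16 °C (-0.84, edgeR adjusted p = 0.105).

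The rps2 entry (OstapCp29) had the highest log2 change with light at 24 °C among the 28 entries tested. It had 20, 47 and 105 counts at 24 °C in light 100 and 4, 17 and 12 at 24 °C in light 10, or 2.00 ± 1.23 CPM at light 100 and 0.357 ± 0.219 CPM at light 10. At 16 °C it had 37, 50 and 38 counts at light 100 and 18, 19 and 16 at light 10, or 1.01 ± 0.174 CPM at light 100 and 0.432 ± 0.0596 CPM at light 10. Groups at different light did not overlap at either temperature. The change at 24 °C was 2.58 ± 0.50 (edgeR adjusted p = 0.000556), and 1.94 (edgeR adjusted p = 0.00336) without replicate 3 at light 100. That at 16 °C was not called (edgeR adjusted p = 0.0595), though DESeq2 called it, at 1.24 (DESeq2 adjusted p = 0.0289).

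With warmth at light 100, rps2 was the only one of the 28 plastid entries tested that was called higher, at 1.03 ± 0.42 (edgeR adjusted p = 0.0394). Without replicate 3 at 24 °C in light 100 the change was 0.39 (edgeR adjusted p = 0.407). It was lost too without replicate 1 (0.97, edgeR adjusted p = 0.0930) or replicate 3 (0.95, edgeR adjusted p = 0.10) at 16 °C in light 100, and without replicate 1 at 16 °C in light 10 (1.03, edgeR adjusted p = 0.0515). A fit with the replicate number as a block lost the call as well. The psbE entry, below the filter, was called higher with warmth at light 100 by DESeq2 and in the fit without the filter.

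The rps7 entry (OstapCp24) had a log2 change with light at 16 °C of -0.09 ± 0.35 (edgeR adjusted p = 0.867). It had 7, 25 and 14 counts at 24 °C in light 100, 10, 8 and 1 at 24 °C in light 10, 36, 27 and 25 at 16 °C in light 100, and 36, 27 and 30 at 16 °C in light 10. In CPM, the group at 24 °C in light 10 lay below all others, as it did for rps12. The rps7 level there was 0.174 ± 0.117, against 0.753 ± 0.0938 at 16 °C in light 10. With warmth at light 10, rps7 fell by 1.97 ± 0.44 (edgeR adjusted p = 0.00147), and the call was kept in all alternatives. With light at 24 °C it rose by 1.55 ± 0.48 (edgeR adjusted p = 0.0142), a call lost without replicate 2 at light 100 (1.18, edgeR adjusted p = 0.0939). The edgeR adjusted p for its interaction was 0.0538.

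Rps18 (OstapCp22) rose with light at both temperatures. Its counts were 48, 66 and 69 at 24 °C in light 100 and 51, 43 and 18 at 24 °C in light 10, or 2.35 ± 0.391 CPM at light 100 and 1.09 ± 0.298 CPM at light 10, without overlap. At 16 °C they were 146, 106 and 52 at light 100 and 63, 39 and 53 at light 10, or 2.46 ± 1.20 CPM at light 100 and 1.25 ± 0.249 CPM at light 10, with overlap. The changes were 1.05 ± 0.36 at 24 °C (edgeR adjusted p = 0.0238) and 0.97 ± 0.34 at 16 °C (edgeR adjusted p = 0.0374). At 16 °C the call was lost without any 1 of the libraries of the comparison except replicate 3 at light 100, with values from 0.59 without replicate 1 at light 100 to 1.13 without replicate 1 at light 10 (edgeR adjusted p from 0.0503 to 0.209). At 24 °C it was lost without replicate 1 at light 100 (0.92, edgeR adjusted p = 0.0733) or without replicate 2 (1.08, edgeR adjusted p = 0.0519) or 3 (0.88, edgeR adjusted p = 0.0667) at light 10. The fifth tested entry, rps9, was not called and had 24, 12 and 6 counts at 24 °C in light 100 and 0, 2 and 13 at 24 °C in light 10. Without replicate 3 at 24 °C in light 10, rps9 was called with light at 24 °C, at 4.23 (edgeR adjusted p = 0.00920).

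ORF537 (OstapCp06), an open reading frame to which the table gives no function, was called in 3 comparisons, as was rps12. It had 50, 56 and 128 counts at 24 °C in light 100, 70, 48 and 12 at 24 °C in light 10, 67, 82 and 78 at 16 °C in light 100, and 18, 17 and 22 at 16 °C in light 10. Its level was 2.93 ± 1.22 CPM at 24 °C in light 100, 1.22 ± 0.674 at 24 °C in light 10, 1.82 ± 0.161 at 16 °C in light 100 and 0.461 ± 0.0448 at 16 °C in light 10. The 3 libraries at 16 °C in light 10 were tightly grouped, from 0.431 to 0.513 CPM, and the lowest library at 24 °C in light 10 came down to 0.509 CPM. The groups at 24 °C overlapped, with 1.72 CPM in the lowest library at light 100 and 1.85 CPM in the highest at light 10.

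ORF537 rose with light at 16 °C by 1.97 ± 0.41 (edgeR adjusted p = 0.00186), a call kept in all alternatives. With light at 24 °C it rose by 1.20 ± 0.37 (edgeR adjusted p = 0.0134), and by 0.82 without replicate 3 at light 100, where the call was lost (edgeR adjusted p = 0.0921). With warmth at light 10 it was the single plastid entry called higher, at 1.45 ± 0.43 (edgeR adjusted p = 0.00929). Without replicate 1 at 24 °C in light 10 this was 1.03 (edgeR adjusted p = 0.0641).

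The gene ycf9, also known as psbZ, encodes a small photosystem II subunit. By its name it was listed with the other named entries, so the photosystem counts and shares given here leave it out. It had 40, 15 and 16 counts at 24 °C in light 100, 13, 13 and 8 at 24 °C in light 10, 28, 19 and 16 at 16 °C in light 100, and 22, 26 and 26 at 16 °C in light 10. It was called higher with light at 24 °C, at 1.50 ± 0.58 (edgeR adjusted p = 0.0406). Without replicate 1 at 24 °C in light 100 its change was 0.49 (edgeR adjusted p = 0.313). The call was lost as well without any 1 of the 3 libraries at 24 °C in light 10 (edgeR adjusted p from 0.0674 to 0.0851) or at 16 °C in light 10 (edgeR adjusted p from 0.0501 to 0.0519), with changes of 1.48 to 1.52.

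The library of lowest depth was high in several other entries of low count. In rpoB (OstapCp26), a subunit of the plastid RNA polymerase, the 24 °C in light 100 group had 35, 15 and 5 counts, against 6, 1 and 10 at 24 °C in light 10, 24, 10 and 35 at 16 °C in light 100 and 18, 21 and 26 at 16 °C in light 10. Its level in that group was 0.884 ± 1.00 CPM, and no comparison of rpoB was called by edgeR. DESeq2 called its change with light at 24 °C, at 2.16 (DESeq2 adjusted p = 0.0183). The tRNA entry trnC had 20, 9 and 3 counts there, against 2, 0 and 5 at 24 °C in light 10. In replicate 1 of that group rrf, ycf9, rps9, rpoB and trnC and the mitochondrial sum were all at their highest of the group. The part of this library in the rrf and ycf9 results is given above by the values without it. For tufA (OstapCp25), the translation elongation factor Tu, counts were 7, 2 and 4 at 24 °C in light 100, 1, 1 and 2 at 24 °C in light 10, 14, 7 and 10 at 16 °C in light 100, and 14, 6 and 4 at 16 °C in light 10. Its edgeR adjusted p was lowest for warmth at light 10, at 0.0546. Some alternatives called tufA lower there, among them the fit without the filter (-2.15, edgeR adjusted p = 0.0473). Another was the fit without replicate 3 at 16 °C in light 10 (-2.49, edgeR adjusted p = 0.0333).

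Few plastid entries were called with warmth. At light 10, 1 of the 28 was higher at 24 °C than at 16 °C and 4 were lower, against 66.3% of all entries called, 32.9% higher and 33.4% lower. Among plastid entries these counts are 3.57% and 14.3%. The called entries were ORF537, rps7, rps12 and both rrf copies. An unadjusted p under 0.05 was found for 6 of the 28 plastid entries, against 5307 of all 7667 entries tested. The count of lower entries was 1 without replicate 1 and 2 without replicate 2 at 24 °C, and 2 without replicate 1 or replicate 2 at 16 °C. At light 100, 1 entry was higher and 4 were lower, against 71.1% of all entries called, 35.1% higher and 36.1% lower. The 4 were the paired rrs and rrl entries, so they stand for 2 genes. The medians over the plastid entries were -0.31 at light 10 and -0.10 at light 100, against -0.01 and -0.02 over all entries.

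Mitochondrial entries went another way in number. Of the 62 tested, 18 were higher and 6 lower with warmth at light 10, and 19 were higher and 4 lower with warmth at light 100. The difference between the organelles was not tested. In the interaction of warmth and light, 30.5% of all entries were called, 16.9% higher and 13.6% lower. The plastid calls, 2 higher and 2 lower, were the paired rrf and rrs entries, and 0 of the 22 protein-coding entries were called. Of the 28 plastid entries, 8 had an unadjusted p under 0.05, against 3222 of all 7667 entries tested. DESeq2 called 5 higher and 2 lower of the 93 plastid entries to which it gave an adjusted p. Its share over all entries was not computed.

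The share of each role was taken within the library's plastid protein-coding counts, without a test. Small-subunit ribosomal proteins held 21.3% ± 2.36 at 24 °C in light 100, 12.7% ± 1.41 at 24 °C in light 10, 21.6% ± 6.58 at 16 °C in light 100 and 18.9% ± 4.16 at 16 °C in light 10. The lowest library at 24 °C in light 100 held 18.6%, and the highest at 24 °C in light 10 held 13.5%. The share of rbcL was 10.6% ± 1.50 at 24 °C in light 100, against 20.2% ± 3.08 at 24 °C in light 10, 16.5% ± 1.21 at 16 °C in light 100 and 19.7% ± 4.05 at 16 °C in light 10. The 3 libraries at 24 °C in light 100, with 8.82% to 11.5%, were the lowest of all 12. The photosystem genes together held 43.1% ± 3.22 at 24 °C in light 100, 45.2% ± 1.17 at 24 °C in light 10, 40.1% ± 5.66 at 16 °C in light 100 and 39.7% ± 1.54 at 16 °C in light 10. Shares within a total are bound to each other, so a lower share of one role does not show that its level was lower. The level of rbcL at 24 °C, given above, was nearly equal at both lights.

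**Figure D5:**
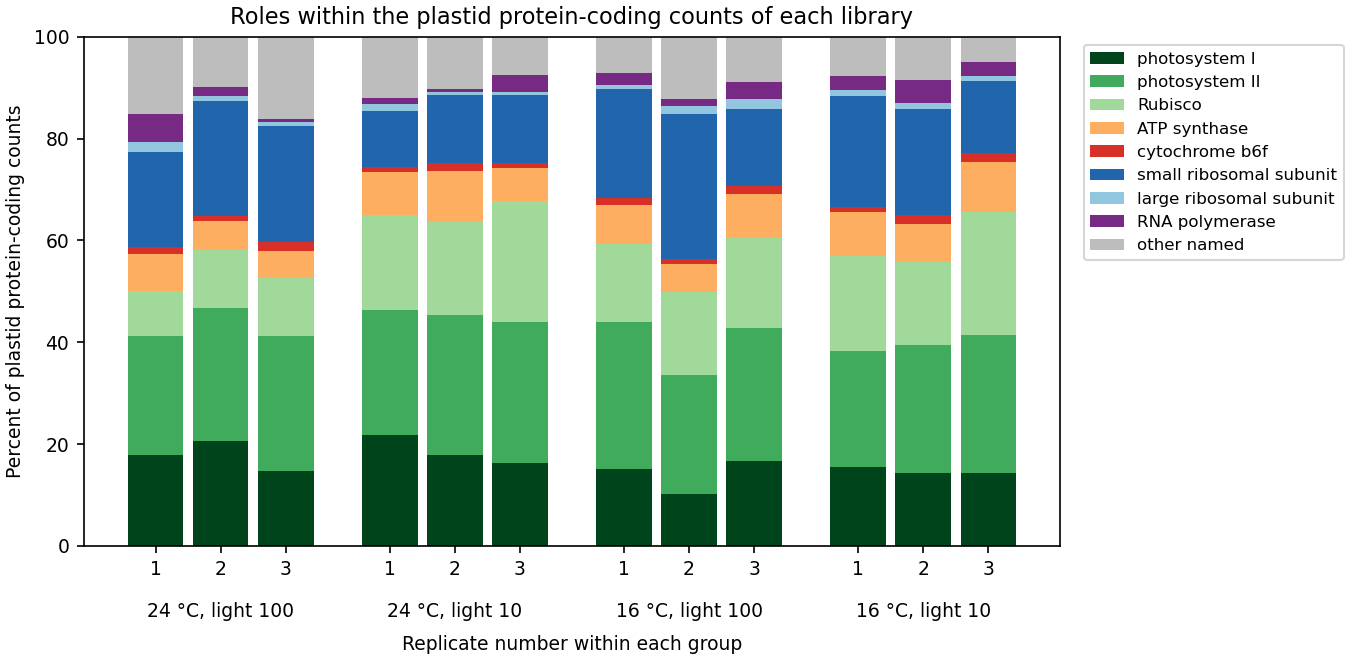
Percent of the plastid protein-coding counts of each library (1 copy of psbA) held by each role, with 3 libraries per group. At 24 °C in light 100 the rbcL share (Rubisco) was 8.82% to 11.5%, below that of every other library, while both photosystems together held 41.2% to 46.8%.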

How the data were processed

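The deposited Ostreococcus table holds whole-number counts per entry and library, made by the authors. The submitters' processing notes name HISAT2 2.1.0 and FastQC 0.11.5. BGI prepared the libraries and read them in pairs on DNBseq, per the labels' protocols, which name an extraction kit for the other species but none for Ostreococcus. The sources used here do not give the counting program, genome build, use of strand, treatment of reads with several positions or RNA selection. No Ostreococcus genome was used here, so no sequence or position is given.

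The whole table was fitted in R 4.3.3 by edgeR 4.0.16 and limma 3.58.1, as 4 group means of 3 libraries. Entries were kept by filterByExpr (minimum count 10), library sizes were scaled by TMM, and robust quasi-likelihood F tests had 8 residual degrees of freedom. P-values were adjusted by Benjamini-Hochberg over the 7667 entries kept, and an entry was called at an adjusted p under 0.05. These are the edgeR adjusted p-values of the text. Standard errors come from the F statistic. CPM of an entry are counts per 1000000 of the TMM-scaled library size, and unscaled CPM those of the total count, with SDs over 3 libraries. No 2 libraries of a group were as close as repeats of 1 library. Replicate numbers were not taken to pair libraries across groups.

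Entries with the same name, at least 10 counts and a difference within 1.5 SD of a random split in every library were taken as copies. Per-library values are given by a rule for psbA, psbD, psbC, psaA, psaB, petA, atpA, atpB, rbcL, tufA, rpoB, the rRNA entries and called entries with a mean of at least 5 CPM. The other entries with per-library values, among them ORF537, rps2, rps7, rps12, Rps18 and ycf9, were chosen after their values were seen. The members and lists were chosen with earlier results of these data known. Planned permutation tests of the summed plastid share and of the ratio to mitochondrial counts are not reported, since they would test a score over the members. Alternatives were another scaling, no filter, DESeq2 1.42.0, a fit of the compared groups alone, the replicate block and each library left out, and, added after seeing the data, 1 copy of each pair and both libraries of lowest depth left out.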

Additional observations from a re-analysis of the deposited data

Results flagged for a closer look

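The effect of warmth differed between the light levels, by a test of the interaction, for 2 plastid genes, each present as a pair of entries. For rrs the difference between the warmth effect at light 100 and that at light 10 was -1.44 (OstapCr01) and -1.43 (OstapCr06) on the log2 scale (edgeR adjusted p = 0.00509 and 0.00543), and it was called in all alternatives run. For rrf it was 2.96 (OstapCr03) and 3.01 (OstapCr04; edgeR adjusted p = 0.0496 and 0.0441). Without replicate 1 at 24 °C in light 100 the rrf values were 1.75 and 1.77 (edgeR adjusted p = 0.155 and 0.128), and without replicate 1 at 16 °C in light 100 they were 3.86 and 3.79 (edgeR adjusted p = 0.0192 and 0.0220).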

How the results depend on the processing

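No called entry changed direction under any alternative run. Both rrs and both rrl entries with warmth at light 100, both rrs entries with light at 24 °C and in the interaction, rps7 with warmth at light 10, ORF537 with light at 16 °C, and rps12 and rps2 with light at 24 °C stayed called throughout. Other scalings moved the median log2 change of all entries by at most 0.03. Without the filter on low counts, 8 plastid entries were lower with warmth at light 10 and 6 higher with warmth at light 100. DESeq2 called 2 higher with warmth at light 100, 18 higher with light at 24 °C and 5 higher in the interaction. These counts are out of 93 plastid entries, and the DESeq2 shares over all entries were not computed. A fit of the compared groups alone gave 4 lower with light at 24 °C, adding both rrl entries, and lost rrf (edgeR adjusted p = 0.0532 and 0.0533) and ycf9 (edgeR adjusted p = 0.0873) there. TMM on nuclear entries gave 1 higher in the interaction (rrf at an edgeR adjusted p of 0.0504). With 1 copy of each pair, 2 were lower with warmth at light 100, 1 lower with light at 24 °C, and 1 higher and 1 lower in the interaction. Without both libraries of lowest depth, 5 were higher with light at 24 °C, where psbC, psaA, ORF537, Rps18, ycf9 and rrf were lost, and 1 in the interaction; rps12 was lost with warmth at light 10 (-0.81, edgeR adjusted p = 0.101). With the replicate block, 0 were higher with warmth at light 100 (rps2 at an edgeR adjusted p of 0.0536), 4 lower with light at 24 °C and 4 lower in the interaction, both by adding the rrl entries (edgeR adjusted p from 0.0208 to 0.0330). The labels do not say what the replicate numbers mark. Libraries with the same number deviated together (r over 0.1) in 3 of 6 pairs for each number, with r from -0.271 to 0.385, and 6 of 12 libraries correlated best with their own number. Leaving out each library in turn gave 0 to 1 higher and 1 to 5 lower with warmth at light 10, 1 to 3 higher and 4 to 6 lower with warmth at light 100, 1 to 7 higher with light at 16 °C, 5 to 15 higher and 2 to 4 lower with light at 24 °C, and 0 to 4 higher and 2 to 4 lower in the interaction. Over all 94 entries, both copies included, the mean plastid share of counts differed between 24 °C and 16 °C by -0.0256 percentage points, by -0.0130 with 1 copy of each pair and by -0.000667 without the rRNA and tRNA entries. These differences have unlike bases. The group means ran from 0.0194% to 0.0580% over all entries and from 0.0112% to 0.0305% with 1 copy. Without the rRNA and tRNA entries they ran from 0.00203% to 0.00404%. The log2 ratio of plastid to mitochondrial counts averaged -1.96 at light 100 and -0.32 at light 10 at 24 °C, and -0.55 at light 100 and -0.96 at light 10 at 16 °C, opposite in direction. Averaged over the temperatures, light 100 minus light 10 was -0.62, -0.32 without replicate 1 at 24 °C in light 100, and 0.28 without rRNA and tRNA. These sums have no test, and the cause of the shifts above was not tested. The fit of plastid entries alone was not run, since its p-values would be adjusted over these entries only. Depth limits the plastid results, since 66 of 94 entries had too few counts to pass the filter.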
